A study of Homo sapiens with 8 samples.

Results

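The comparison described here is of histone H3 lysine 36 dimethylation (H3K36me2) between neural progenitor cells carrying the KDM2A hairpin sh4 and neural progenitor cells carrying the control virus NC, each mapped by chromatin immunoprecipitation and sequencing (ChIP-seq). It uses 4 of the 8 samples of the series: the control and sh4 H3K36me2 libraries and their inputs, the inputs entering only through the enrichment that the authors computed. A KDM2A list from control cells is used once, in the last comparison. Both groups descend from the human embryonic stem cell line H9, an established line, which was infected with lentivirus, selected with puromycin and then differentiated. The KDM2A sequences were chosen by the submitters as the most effective of a larger set of small interfering RNAs, and the infected cultures are described as lines without any mention of single clones. Only the hairpin separates sh4 from NC in the labels, and all cells had passed through the same infection and selection. The strength of the knockdown could not be checked, because the files hold ChIP regions and no expression, and the labelled cell type could not be checked against its markers for the same reason. Each group holds 1 library. There is therefore no replicate error to set beside any value, and the groups were compared by counts without a test.

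Regions were taken from the authors' lists for chromosomes 1 to 22, leaving out chromosome 1 from 140 Mb on. This kept 18309 of the 19691 deposited control regions and 19069 of the 21493 deposited sh4 regions. The stretch of chromosome 1 that was left out held 708 control and 1840 sh4 regions, and 674 control and 584 sh4 regions lay on other sequences. Regions lay on a grid of 200 bp, and the smallest gap between neighbours was 800 bp. A sequence is called in a library if it lies inside a region of that library's list. Calling is a threshold, so an uncalled sequence may still carry the mark at a level below the caller's limit, and less mark per cell cannot be told apart from fewer cells with the mark.

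H3K36me2 is a broad histone mark of active and intergenic euchromatin, laid down in mammals mainly by the NSD family of methyltransferases and ASH1L. KDM2A, a JmjC-domain demethylase, removes it, and its CxxC zinc finger binds unmethylated CpG-rich DNA such as CpG islands at promoters. The DNA methyltransferase DNMT3A reads H3K36me2 through its PWWP domain, and the mark is known to counteract the Polycomb mark H3K27me3.

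The promoters below, chosen after the values were seen, show the kinds of sequence that lay inside the regions. Each is the RefSeq promoter window of GRCh38.p14, from 250 bp before to 50 bp after the transcription start, printed 5′ to 3′ on the + strand with every CpG in capitals. RXFP1, the relaxin receptor (chr4:158521464-158521763), lay inside regions of both libraries. LIMCH1, an actin-associated activator of non-muscle myosin (chr4:41360557-41360856), and SLC35C1, the Golgi GDP-fucose transporter (chr11:45804156-45804455), lay inside control regions only. AHR, the aryl hydrocarbon receptor (chr7:17298402-17298701), and SPINK9, a serine protease inhibitor of the skin (chr5:148335309-148335608), lay inside sh4 regions only.
RXFP1: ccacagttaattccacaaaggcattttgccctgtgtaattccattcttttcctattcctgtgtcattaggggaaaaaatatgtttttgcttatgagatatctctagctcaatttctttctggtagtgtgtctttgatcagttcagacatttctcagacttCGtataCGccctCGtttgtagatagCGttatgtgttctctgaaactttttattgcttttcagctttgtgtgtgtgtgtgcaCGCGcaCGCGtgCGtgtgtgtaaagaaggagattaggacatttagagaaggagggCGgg
LIMCH1: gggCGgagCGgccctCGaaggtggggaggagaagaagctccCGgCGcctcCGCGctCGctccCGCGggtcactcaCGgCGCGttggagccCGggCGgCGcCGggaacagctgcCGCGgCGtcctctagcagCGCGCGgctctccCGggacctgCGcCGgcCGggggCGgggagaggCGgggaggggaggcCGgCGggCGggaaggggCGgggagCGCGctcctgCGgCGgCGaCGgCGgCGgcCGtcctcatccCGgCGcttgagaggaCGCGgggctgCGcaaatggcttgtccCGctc
SLC35C1: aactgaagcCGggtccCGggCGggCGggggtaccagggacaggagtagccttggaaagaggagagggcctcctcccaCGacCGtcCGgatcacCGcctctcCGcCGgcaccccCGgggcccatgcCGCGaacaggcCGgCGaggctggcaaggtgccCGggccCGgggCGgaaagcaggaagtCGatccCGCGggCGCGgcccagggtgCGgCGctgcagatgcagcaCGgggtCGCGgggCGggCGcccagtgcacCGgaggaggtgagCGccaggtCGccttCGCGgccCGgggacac
AHR: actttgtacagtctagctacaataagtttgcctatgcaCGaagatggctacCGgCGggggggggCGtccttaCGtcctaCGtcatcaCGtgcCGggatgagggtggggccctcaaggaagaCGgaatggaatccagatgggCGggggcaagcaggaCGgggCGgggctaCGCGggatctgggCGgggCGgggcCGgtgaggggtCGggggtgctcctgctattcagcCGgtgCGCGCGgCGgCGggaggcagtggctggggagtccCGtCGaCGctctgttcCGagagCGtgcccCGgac
SPINK9: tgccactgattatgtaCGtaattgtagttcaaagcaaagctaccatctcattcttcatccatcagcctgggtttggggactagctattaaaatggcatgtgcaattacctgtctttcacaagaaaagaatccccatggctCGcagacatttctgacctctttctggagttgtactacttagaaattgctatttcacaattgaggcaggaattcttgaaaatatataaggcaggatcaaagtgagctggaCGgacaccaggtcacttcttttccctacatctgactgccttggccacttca

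The window of RXFP1 held 10 CpG, and the deposited fold enrichment of the region over it was 1.596 in the control and 1.65 in sh4. The control-only windows of LIMCH1 and SLC35C1 held 48 and 36 CpG, at folds of 1.39 and 1.33. Of the sh4-only windows, that of AHR was CpG-rich with 30 CpG at a fold of 2.04, whereas that of SPINK9 held 3 CpG at a fold of 1.44. The motif CG reads the same on both strands and overlaps no other motif searched. Among all 19886 promoter windows of protein-coding genes on the analysed sequence, 70.6% held 10 or more CpG.

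Promoters called in the control alone were richer in CpG than promoters called in sh4 alone, and both kinds were poorer in CpG than promoters in general. In the control, 254 promoter windows of 211 genes lay wholly inside a region without lying in an sh4 region, and 90 of these (35.4%, exact binomial interval 29.6 to 41.7) held 10 or more CpG, with a median of 5. In sh4 alone there were 122 windows of 115 genes, of which 12 (9.84%, 5.19 to 16.6) were as CpG-rich, with a median of 2. The intervals, here and below 95% and exact, cover counting error only. Windows outside all regions numbered 19428 and had a median of 22 CpG, so that promoter windows inside H3K36me2 regions were few and mostly CpG-poor in either library. Median GC content followed the same order, at 50.7% in control-only, 43.0% in sh4-only and 63.0% in uncalled windows. In gene-poor windows of 1 Mb, those with fewer than 5 protein-coding genes, 32.3% of 62 control-only windows (20.9 to 45.3) and 14.0% of 50 sh4-only windows (5.82 to 26.7) were CpG-rich, so the intervals overlapped there. They also overlapped at an FDR of at most 1e-10, with 25% of 24 windows (9.77 to 46.7) against 8.57% of 35 (1.804 to 23.1). Only 8 windows, of 7 genes, lay inside regions of both libraries: ABLIM1, CFAP91, DSG1, GCSAM, LOC124903185, PHLDB2 and RXFP1. A promoter window was matched for 14157 of the 18000 protein-coding genes.

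**Figure D1:**
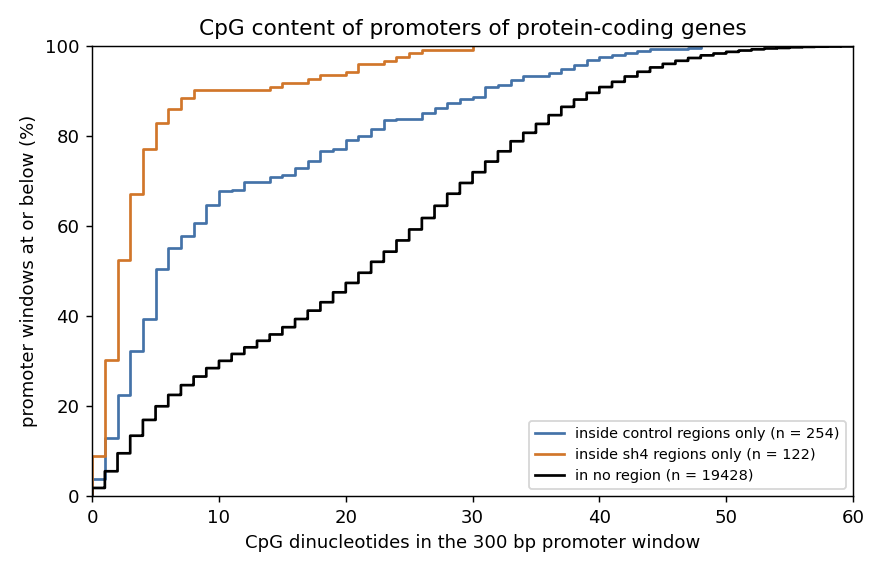
Cumulative share of promoter windows (vertical axis, percent) by their number of CpG dinucleotides (horizontal axis), for windows of 300 bp inside control regions only, inside sh4 regions only and in no region. The sh4-only line lies highest, with a median of 2 CpG, the control-only line has a median of 5, and the line of uncalled windows a median of 22.

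The H3K36me2 landscapes of the libraries were of nearly equal extent but lay for the most part at different positions. Control regions covered 94.6 Mb and sh4 regions 93.7 Mb, a ratio of 0.991 that became 1.11 with the whole of chromosome 1 and 1.47 with folds at or above the control median, and sh4 had 1.04 times as many regions (interval 1.02 to 1.06). Of the covered sequence, 7.87 Mb were called in both libraries, 86.7 Mb in the control only and 85.8 Mb in sh4 only. The shared sequence was 8.32% of the control length and 8.40% of the sh4 length, beside a coverage of 3.39% by sh4 and 3.42% by the control of the whole analysed span of 2765 Mb. Control sequence thus lay in sh4 regions 2.46 times as often as the sh4 coverage of the span alone would give. By number, 2492 control regions (13.6%, 13.1 to 14.1) met an sh4 region by at least 1 bp, and 2498 sh4 regions (13.1%, 12.6 to 13.6) met a control region. At an FDR of at most 1e-10 the ratio of covered length was 1.88 and that of region number 2.01, the shared length was 3.03% of the control length and 4.96% of control regions were overlapped. With the fold limit these shares were 4.51% and 6.88%. The sh4 regions then covered 0.938% of the span at the FDR limit and 1.72% at the fold limit. Control sequence thus lay in sh4 regions 3.23 and 2.62 times as often as that coverage would give, against 2.46 times as deposited.

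Per-region enrichment was low in both libraries, which bears on every call here. The median deposited fold was 1.59 in the control and 1.66 in sh4, and folds of 2 or more were held by 1423 control regions (7.77%) and 2901 sh4 regions (15.2%). Read counts recovered from the deposited fold and p-value gave a median region 163 immunoprecipitate (IP) and 99 input reads in the control and 153 and 90 in sh4. Input reads per kb, pooled over all regions of a library, were 23.9 in the control and 21.6 in sh4. The lists hold no library totals, so a difference in sequencing depth between the libraries cannot be told apart from a difference in the mark, and its part in the counts was not tested.

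Where the libraries met, most overlapped regions were shared in part. There were 2576 shared stretches with a median of 2800 bp, and 16 of them reached 10 kb. A shared stretch cannot be longer than the regions that form it. Median width was 5000 bp in overlapped control regions and 5200 bp in overlapped sh4 regions, and 4400 bp over all regions of either library. An overlapped control region shared a median of 60.9% of its width, and 510 control regions lay fully inside sh4 regions. In 1077 pairs each region covered at least 50% of the other. These paired regions had a median fold of 1.58 in the control and 1.605 in sh4, and the fold was higher in sh4 in 563 pairs (52.3%), so the higher folds of the sh4 list as a whole were little seen in the pairs. Of the pairs, 535 were wider in sh4, 482 wider in the control, and 20 had identical borders. Regions without an overlap lay a median of 36600 bp (control) and 33600 bp (sh4) from the nearest region of the other library. Of such control regions 11.6%, and of such sh4 regions 11.4%, had a region of the other library within 5 kb. These shares were not set against the density of regions, so they do not show whether near neighbours were rare or common. Control regions lay far from any sh4 region more often than the reverse, with 917 (5.80%) and 181 (1.09%) beyond 500 kb.

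The widest sequences called in both libraries lay between protein-coding genes in 3 of the 4 cases taken. A stretch of 14800 bp at chr2:160227401-160242200 lay 27128 bp from ITGB6, which encodes an integrin subunit, at folds of 1.35 in the control and 1.37 in sh4. An equally long stretch at chr2:207235601-207250400 lay over the non-coding RNA gene MYOSLID, at 1.41 and 1.27. A further long stretch, of 13400 bp at chr5:169694201-169707600, lay in DOCK2, an activator of Rac in blood cells, at 1.27 and 1.31. The highest folds of a shared stretch, 755.7 and 676.2, lay at chr1:631001-631400 in MTCO1P12, a nuclear pseudogene of a mitochondrial gene, and reads of mitochondrial DNA cannot be told apart from its own there.

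Region width separated the libraries at its upper end. Regions of 12 kb or more numbered 643 in the control and 294 in sh4 and covered 9.61 and 4.30 Mb. Of the control ones, 111 (17.3%, 14.4 to 20.4) met an sh4 region, and of the sh4 ones 104 (35.4%, 29.9 to 41.1) met a control region. At the other end, regions under 2 kb were alike in number, 543 and 505, and were overlapped in 7.92% (5.79 to 10.5) and 10.9% (8.31 to 13.9) of cases. In sh4 the share met by a control region grew through the upper width classes, from 12.1% at 4 to 6 kb to 22.9% at 8 to 12 kb, while in the control it was 17.9% at 6 to 8 kb and 18.1% at 8 to 12 kb. A wider region can meet another by its size alone. By length, 6.33% of the sequence in the widest control regions and 13.5% of that in the widest sh4 regions was called in the other library. The widest regions were also the weakest, with a median fold of 1.30 in the control and 1.34 in sh4.

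**Figure D2:**
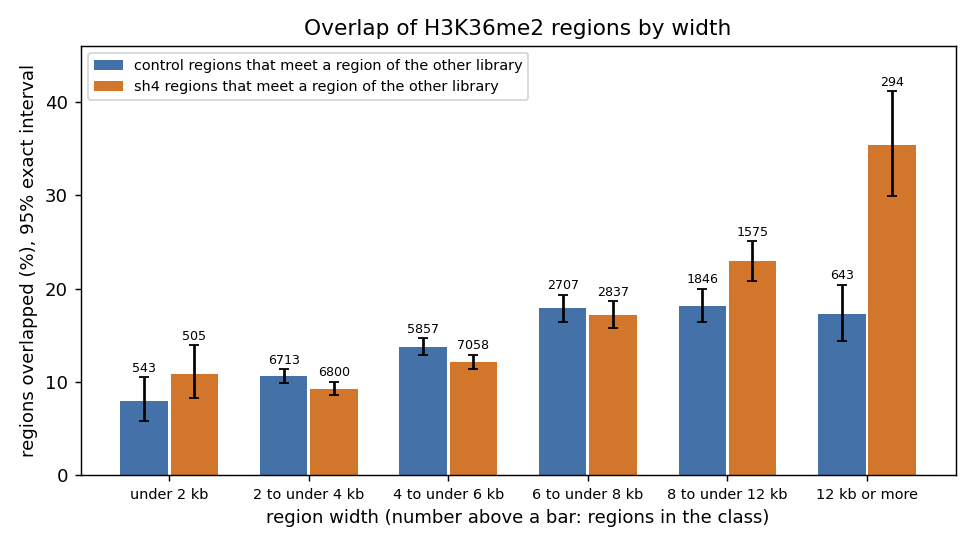
Share of regions that meet a region of the other library (vertical axis, percent, with 95% exact binomial intervals) by region width class (horizontal axis), for control and sh4 regions, with the number of regions above each bar. The bars of the widest class stand at 17.3% for the control and 35.4% for sh4.

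Among the widest control regions without any sh4 overlap were wide, weakly enriched domains over genes. The widest, 34600 bp at chr11:79091801-79126400, lay in TENM4, a teneurin adhesion protein of neurons, at a fold of 1.17. A region of 29800 bp at chr1:94089801-94119600 lay in ABCA4, the retinal transporter, at 1.22, and one of 29000 bp at chr3:119614201-119643200 covered parts of PLA1A and POPDC2 at 1.37. The widest sh4 regions without control overlap reached 28200 bp at chr19:27344401-27372600 (fold 1.15) and 26600 bp at chr20:8917201-8943800 (fold 1.30), the latter 32300 bp from the phospholipase C gene PLCB1. The highest folds of sh4-only regions were of another kind. A region of 200 bp at chr17:24421401-24421600, 2716788 bp from KCNJ18, had a fold of 2392. One over the mitochondrial pseudogene MTATP6P1 had a fold of 972.7, and reads of mitochondrial DNA cannot be told apart from its own there either. Among control-only regions the highest fold was 60.5, at chr5:49630801-49631600 outside genes, 764591 bp from EMB. Whether reads can be placed on 1 copy at the chromosome 17 and chromosome 5 regions was not tested, so these folds are uncertain. The next control-only folds were 8.46 in PIK3R1, a regulatory subunit of PI3-kinase, 6.75 in ABCA6, a lipid transporter, and 4.92 in ROBO2, an axon guidance receptor.

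By chromosome, sh4 had fewer regions than the control on several gene-dense chromosomes and more on chromosomes 4, 5, 12 and 13. On chromosome 19 there were 34 control and 6 sh4 regions (ratio 0.176, 0.0606 to 0.425). Pooled input in these sh4 regions was 44.2 reads per kb, against 20.9 to 22.3 in sh4 on the other chromosomes and 24.8 in the control on chromosome 19. The region chr19:27344401-27372600 alone made up 28200 bp of their 0.0398 Mb, so the pooled value rests mostly on 1 region. The part of input in the count was not tested. On chromosome 22 there were 48 and 13 (0.271, 0.135 to 0.508). Chromosome 17 had 263 and 144 (0.548, 0.444 to 0.673), and chromosome 16 had 273 and 164 (0.601, 0.492 to 0.732). These were the 4 chromosomes whose interval lay below 1. The interval lay above 1 on chromosome 4, with 1760 and 2207 regions (1.25, 1.18 to 1.34), chromosome 5, with 1550 and 1898 (1.22, 1.14 to 1.31), chromosome 12, with 858 and 973 (1.13, 1.03 to 1.24), and chromosome 13, with 863 and 966 (1.12, 1.02 to 1.23). On the remaining 14 chromosomes the interval included 1. Across the 22 chromosomes the Spearman correlation of the ratio with protein-coding genes per Mb was -0.584, and it was -0.462 over the 20 chromosomes without 19 and 22. The chromosomes of a library share its depth and its caller, so these correlations are descriptions.

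**Figure D3:**
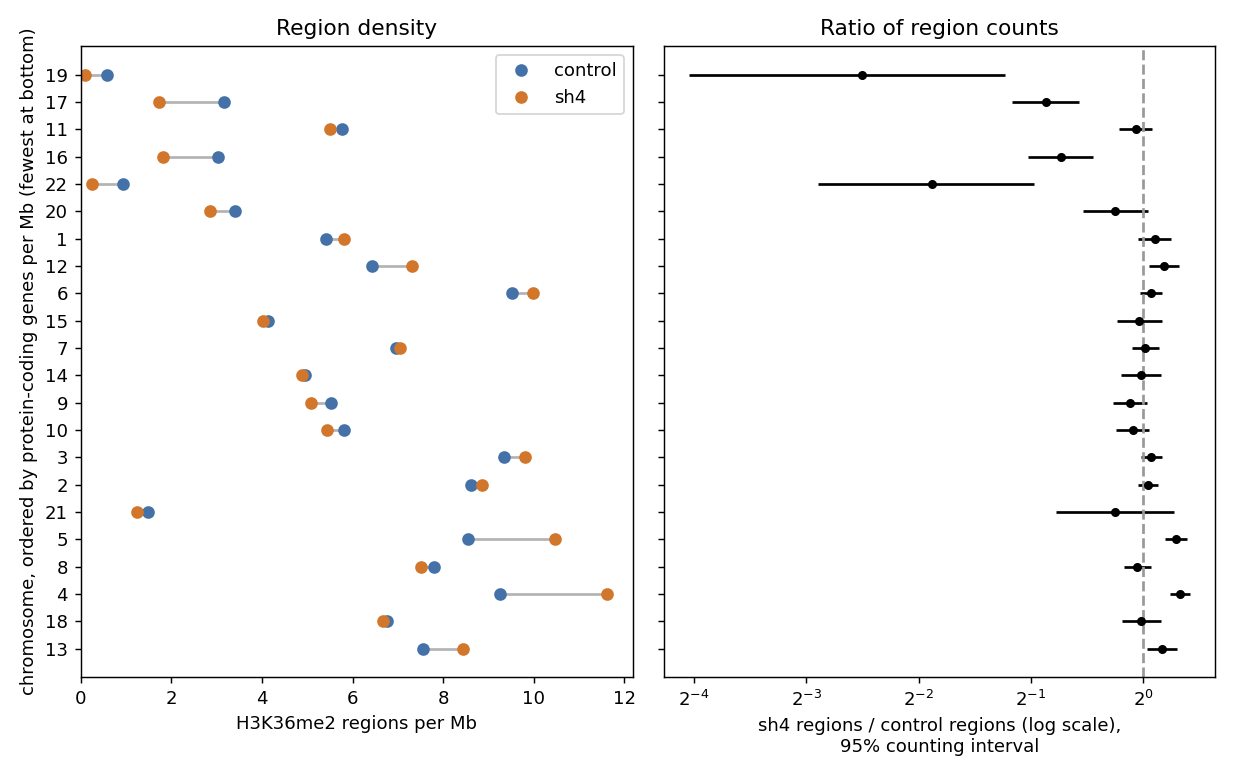
Left, H3K36me2 regions per Mb of analysed chromosome (horizontal axis) in the control and in sh4, with chromosomes ordered by protein-coding genes per Mb (vertical axis, fewest at the bottom). Right, the ratio of sh4 to control region counts on a log scale with its 95% counting interval, which lies below 1 on chromosomes 16, 17, 19 and 22 and above 1 on 4, 5, 12 and 13.

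The amount of sequence called in both libraries differed between chromosomes as well. It was 11.1% of the control length on chromosome 4, 10.8% on chromosome 5 and 10.02% on chromosome 3. It was 1.98% on chromosome 17 and 1.34% on chromosome 19, and no sequence on chromosome 22 was called in both. Divided by the sh4 coverage of the chromosome these shares were 1.99 on chromosome 4, 2.06 on chromosome 5, 2.03 on chromosome 3 and 2.44 on chromosome 17, so the contrast between these chromosomes was not seen on that scale, and the value of 19.7 on chromosome 19 comes from 1 shared stretch. On 21 of the 22 chromosomes the share of control length called in sh4 lay above the sh4 coverage of that chromosome.

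A contrast of the same direction appeared when the genome was cut into windows of 1 Mb and these were split by how many protein-coding genes they held, a split chosen with the values already seen. Windows with fewer than 5 genes held 10458 control and 12813 sh4 regions, a ratio of 1.23 (1.19 to 1.26). Windows with 5 to 9 genes held 5529 and 4871 (0.881, 0.848 to 0.916), and windows with 10 or more genes 2322 and 1385 (0.596, 0.558 to 0.638). In the gene-rich windows 7.11% of control regions and 11.9% of sh4 regions met the other library, against 15.99% and 13.1% in the gene-poor ones. The 590 gene-rich windows held 11.9 Mb of control and 6.59 Mb of sh4 sequence, the 1481 gene-poor ones 52.9 and 62.6 Mb. These shares were not set against that coverage, so they do not compare agreement between the window classes. With regions limited to folds at or above the control median of 1.59, the gene-rich ratio was 0.769 and the gene-poor ratio 1.49. With an FDR of at most 1e-10 they were 1.03 (0.863 to 1.23) and 2.27, so the gene-rich windows no longer held fewer sh4 regions. The gene-rich ratio was 0.487 of the gene-poor one as deposited, and 0.517 and 0.455 under these limits. It did not rest on the 4 chromosomes with fewest sh4 regions relative to the control: without chromosomes 16, 17, 19 and 22 the gene-rich ratio was 0.621 (0.579 to 0.665) and the gene-poor ratio 1.24 (1.21 to 1.27). Within single chromosomes, the gene-rich ratio lay below the gene-poor one on all 19 chromosomes with at least 20 control regions in each class, at 0.232 to 0.713 of it. Both of these divisions by chromosome were added after the data had been seen.

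In windows of 10 Mb, also chosen after the values were seen, the ratio of sh4 to control covered length ranged from 0.323 to 2.61 over the 189 windows in which the mean coverage of the libraries was at least 0.2 Mb. The lowest was 230 to 240 Mb on chromosome 2, where the covered length was 0.501 Mb in the control and 0.162 Mb in sh4. The highest was 20 to 30 Mb on chromosome 5, with 0.135 and 0.352 Mb. Of these windows, 17 lay below 0.5 and 23 above 1.5, and the balance depended on how windows were kept. With the limit set on control coverage alone, which favours low ratios, 195 windows ranged from 0.0782 to 1.92, with 23 below 0.5 and 18 above 1.5.

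**Figure D4:**
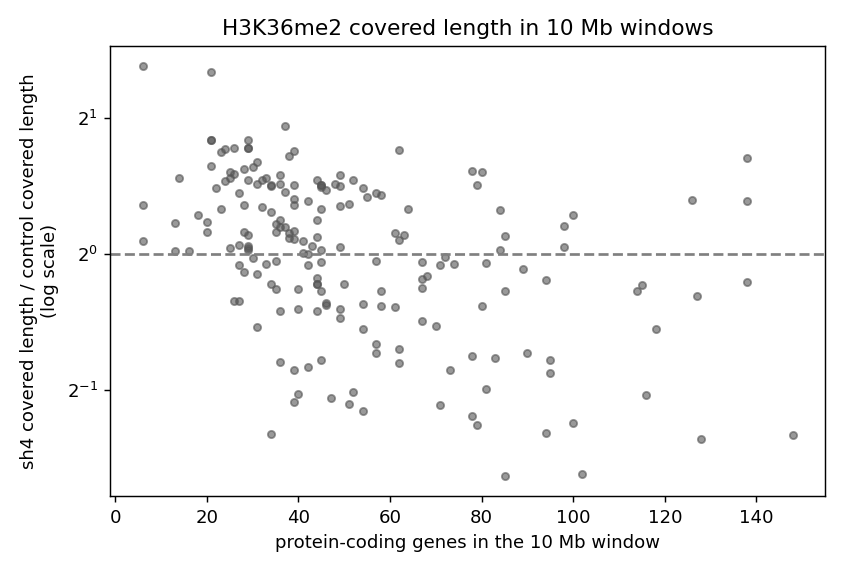
Ratio of sh4 to control covered length (vertical axis, log scale) against the number of protein-coding genes (horizontal axis) in the 189 windows of 10 Mb with a mean coverage of at least 0.2 Mb, 1 point per window. Points lie from 0.323 to 2.61, and the highest is 20 to 30 Mb of chromosome 5.

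In gene bodies less sequence was called in sh4 than in the control, and outside them more. Protein-coding gene bodies, which make up 41.9% of the span, held 42.3 Mb of control and 36.7 Mb of sh4 regions, a ratio of 0.867, while the sequence outside held 52.3 and 57.0 Mb, a ratio of 1.09. The direction in gene bodies turned under stricter limits, to 1.39 with folds at or above the control median and 1.75 with an FDR of at most 1e-10, and it was 1.04 in the gene-poor windows. Gene bodies held 44.7% of control and 39.1% of sh4 sequence, and under those limits 41.6% and 39.6%, and 42.2% and 39.2%. Within gene bodies 3.06 Mb were called in both libraries, 39.2 Mb in the control only and 33.6 Mb in sh4 only. Outside them the lengths were 4.81, 47.5 and 52.2 Mb. Of control sequence, 7.24% was called in sh4 inside gene bodies and 9.20% outside.

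Counted by gene, 3653 protein-coding genes held a control region and 2784 an sh4 region anywhere in the body. Of the 18000 genes, 1804 (10.02%) were called in both libraries, 1849 (10.3%) in the control only and 980 (5.44%) in sh4 only. The excess of control-only genes turned into 475 control-only against 789 sh4-only genes at an FDR of at most 1e-10, and it was 1195 against 1053 with the fold limit. Called in both did not mean the same sequence: 673 genes had a stretch called in both libraries, and in the other 1131 the regions lay at different positions of the gene. Gene length set much of the count. Of the 708 genes of 300 kb or more, 534 (75.4%) were called in both, whereas among the 4928 genes under 10 kb 6 were called in both, 78 in the control only and 36 in sh4 only. The ratio of genes called in sh4 to genes called in the control was 0.5 in the shortest class and 0.917 in the longest. Of 16787 long non-coding RNA genes, 1223 were called in both, 1544 in the control only and 1293 in sh4 only.

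**Figure D5:**
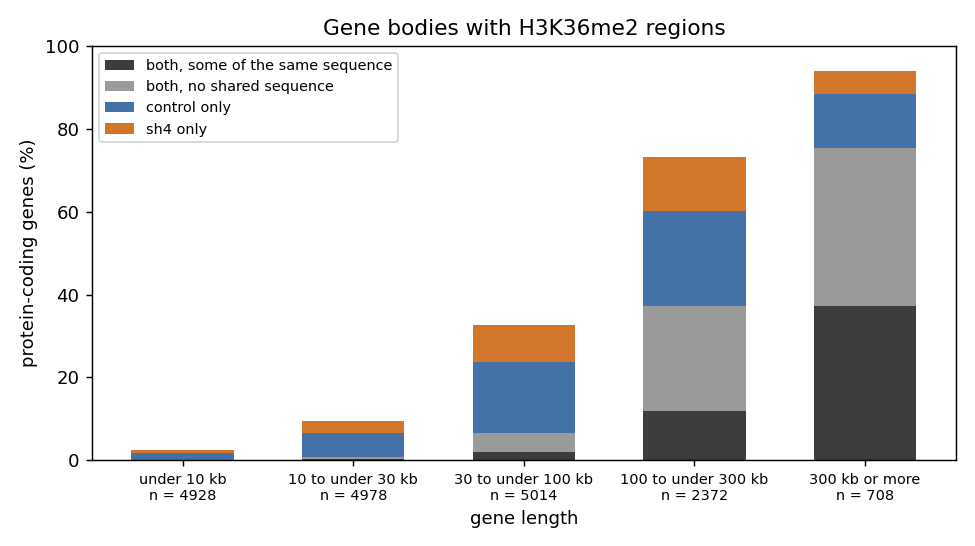
Share of protein-coding genes (vertical axis, percent) with regions in both libraries at some of the same sequence, in both without shared sequence, in the control only and in sh4 only, by gene length class (horizontal axis, with the number of genes). Of the longest class 75.4% were called in both libraries, and control-only genes outnumber sh4-only genes in each class.

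The genes covered most fully in the control and not at all in sh4 were short genes under wide, weak regions. TMPRSS5, a transmembrane serine protease of the nervous system (chromosome 11), lay 100% inside a control region of 21.6 kb with a fold of 1.29 (786 IP and 601 input reads). ZNF691, a zinc finger gene on chromosome 1, was also covered at 100%, by a region of 7.0 kb with a fold of 1.34 (270 and 198 reads). SLC35C1, whose CpG-rich promoter is shown above, was covered at 99.8% (chr11:45802201-45813000, 401 and 297 reads). Every one of these 3 genes held 0% in sh4. MMP7, the matrix protease matrilysin, had the lowest coverage of the 8 genes taken, 81.0%, and TBATA at 91.7%, KLHL38 at 91.9%, C1QTNF9B at 92.2% and FAM50B at 93.8% lay between. The largest control region in each of these 8 genes had a fold of 1.24 to 1.36, below the control median of 1.59. Wide regions had low folds in general, with control medians of 1.46 at 6 to 8 kb and 1.30 at 12 kb or more.

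Genes covered in sh4 and not at all in the control were covered less fully. ERVFRD-1, which encodes the placental fusion protein syncytin-2 (chromosome 6), lay 100% inside an sh4 region of 13.2 kb with a fold of 1.31 (515 IP and 388 input reads). TNFSF10, the death ligand TRAIL, was covered at 69.2%, the largest of its 2 regions having a fold of 1.47. The others were ANKRD66 at 66.1%, DMP1, a bone matrix protein, at 63.9%, TLR10, a Toll-like receptor, at 62.9%, MYOT, a muscle Z-disc protein, at 61.0%, SPINK9 at 60.4% and MMP1, a collagenase, at 60.2%. All 8 held 0% in the control. The largest sh4 region in each of these 8 genes had a fold of 1.29 to 1.53, likewise below the sh4 median of 1.66. Medians of all sh4 regions were 1.51 at 6 to 8 kb and 1.34 at 12 kb or more. MMP7 and MMP1 belong to the same cluster of matrix protease genes on chromosome 11. Each was picked for holding 0% in the other library, so their difference follows from the choice.

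Few genes had much of their body called at the same sequence in both libraries. CTSO, a lysosomal cathepsin, had 80.5% of its body called in the control, 24.2% in sh4 and 22.2% in both. SFRP2, a secreted inhibitor of Wnt signalling, had 44.9%, 21.3% and 21.3%, so all of its sh4 sequence lay inside the control region. ADIPOQ, which encodes adiponectin, had 47.0%, 20.3% and 20.3%, and CLCA1 37.0%, 14.0% and 14.0%. The opposite nesting was seen at LOC124903185, with 24.9% in the control, all of it among the 57.9% called in sh4. MINDY4B had 24.5% and 51.4% with 19.4% shared, and ADGRF4 25.6% and 50.4% with 17.9% shared. DUX4 came first by this rule with 28.0% shared, but it lies in a repeat array on chromosome 4 whose reads cannot be placed on 1 copy, so its value is uncertain.

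In the long genes with most sequence called in the control only, little of the called sequence was shared, which this choice favours. Summed over all genes of 300 kb or more, 8.53% of control sequence was called in sh4. Over all protein-coding genes it was 7.13%, so little sharing was not particular to very long genes. TENM2, a teneurin, held 171.0 kb of control and 143.2 kb of sh4 regions, of which 14.0 kb were shared. WWOX, an oxidoreductase gene at a common fragile site, held 152.2 kb in 23 control regions and 29.2 kb in 6 sh4 regions, with 1.6 kb shared. RAD51B, a homologous recombination gene, held 141.8 and 62.2 kb. The sequence called in the control only was 157.0 kb in TENM2, 150.6 kb in WWOX and 130.6 kb in RAD51B.

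The long genes with most sequence called in sh4 only had fewer control regions. DLG2, a postsynaptic scaffold, held 105.2 kb in 23 control regions and 227.4 kb in 41 sh4 regions. FHIT, at another common fragile site, held 71.0 kb in 15 and 182.6 kb in 36. MACROD2 held 121.4 and 200.4 kb, and PDE4D, a cyclic AMP phosphodiesterase, 136.8 and 171.5 kb. The most sequence called in both libraries was 26.2 kb in NCKAP5, 25 kb in the polarity gene PARD3B, 23.4 kb in the neuronal calcium sensor NCALD and 19.8 kb in CDKAL1.

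Gene lists were set beside the shares of all protein-coding genes, 10.3% control only, 5.44% sh4 only and 10.02% both. Over the 4633 genes called in either library, sh4 coverage was lower in 2724 and higher in 1890, with a median difference of -1.83 percentage points. Of 22 neural progenitor markers, 4 were called in the control only, 1 in sh4 only and 3 in both, and no sequence was shared in any of them. FABP7, the radial glia fatty acid binding protein, was covered at 21.8% in the control and 0% in sh4, while DACH1, a nuclear factor of progenitor rosettes, was covered at 0.652% and 2.80%. SOX1, SOX2, PAX6, HES1, HES5, VIM and MSI1 held no region in either library. Of 38 genes of neurogenesis and neuron differentiation, 4 were control only, 1 sh4 only and 5 both, and the median difference over the called ones was 0.0974 points. The RNA-binding protein gene ELAVL4 had 6.16% and 0%, the transcription factor BCL11A 3.09% and 10.3%, and STMN2, a regulator of microtubules in growing axons, 9.08% and 10.2% with 7.63% shared.

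Genes of axon guidance and the synapse were mostly called in both libraries, and they are long, with a median of 525.3 kb. Of 39, 27 were called in both, 4 in the control only and 1 in sh4 only, and 16 had shared sequence. SLIT3, a secreted guidance cue, was covered at 18.05% in the control and 2.88% in sh4. CNTN4, a contactin adhesion protein, was covered at 1.33% and 6.53%, and EFNA5, an ephrin ligand, at 11.4% and 5.24% with 3.67% shared. Coverage was lower in sh4 in 18 and higher in 14 of the 32 called genes, a median difference of -0.11 points. In the clustered protocadherins, neuronal adhesion genes that share exons and overlap each other, 8 of 22 were called in both and 7 in sh4 only. Because their bodies are nested, these counts come from few regions: PCDHAC2 held 40.1% in the control and 1.63% in sh4, and PCDHGA12 0% and 4.85%.

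In signalling pathways the called genes differed in direction between members. Of 65 MAPK cascade genes, 11 were control only, 6 sh4 only and 20 both, with lower sh4 coverage in 19 and higher in 18. Their median length is 91.0 kb, beside 25.1 kb over all protein-coding genes, and longer genes were more often called in both. RASGRP1, an exchange factor that activates Ras, had 16.4% in the control and 0% in sh4. The exchange factor SOS1 had 6.84% and 6.42% with 2.09% shared. Of 17 feedback inhibitors of this cascade 3 were called: SPRY4 at 76.6% and 0%, SPRED2 at 0% and 4.62%, and DUSP16 at 0% and 4.02%.

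Of 34 growth factors and receptors, 5 were control only, 1 sh4 only and 13 both. These genes are also long, with a median of 84.4 kb, and were not set against genes of like length. Coverage was lower in sh4 in 14 of the 19 called and higher in 5, a median difference of -2.17 points. The neurotrophin gene NTF3 had 14.6% and 0%, PDGFC 5.58% and 18.5%, and FGF2 11.7% and 16.2% with 9.78% shared. Of 35 genes of the Wnt, Notch and Hedgehog pathways, 6 were control only, 1 sh4 only and 5 both, with lower coverage in sh4 in 9 and higher in 3. APC, a component of the complex that degrades beta-catenin, had 12.0% and 0%, and the receptor NOTCH2 0% and 3.04%. The Notch coactivator MAML3 had 16.4% and 12.0% with 3.89% shared.

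The enzymes that write, erase and read H3K36 methylation were uncalled in 17 of 23 cases (73.9%), beside 74.3% of all protein-coding genes. KDM2A (chromosome 11, 67119263 to 67258082) and its paralogue KDM2B (chromosome 12) held no region in either library. DNMT3A had 14.6% of its body in the control in a region of 16.8 kb and 0% in sh4, and DNMT3B and SETD2, the enzyme that adds the trimethyl mark to H3K36, were likewise control only at 10.6% and 9.03%. MTF2, a Polycomb accessory protein, was sh4 only at 9.37%. These genes read against the background of 10.3% and 5.44% are 3 control-only and 2 sh4-only genes of 23. Of 31 Polycomb genes, 3 were control only, 2 sh4 only and 5 both, JARID2 having 13.9% and 1.67%, ASXL3 2.77% and 14.9%, and RYBP 15.3% and 20.3% with 3.05% shared.

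None of the 21 pluripotency genes held a region in either library, POU5F1, NANOG and LIN28A among them. These genes are short, with a median of 13.5 kb, and of all protein-coding genes under 10 kb 97.6% were uncalled, as were 90.5% of those of 10 to 30 kb. Of 28 mesoderm and endoderm genes 1 was control only and 2 were sh4 only, the latter being the endothelial receptor gene KDR at 13.2% and PAX3 at 6.26%. In 16 neural crest genes, TFAP2B had 23.9% and 0% and the endothelin receptor EDNRB 0% and 4.50%. In 20 astrocyte and oligodendrocyte genes, the myelin gene MBP had 12.8% and 0%, the water channel AQP4 0% and 29.1%, and the glutamate transporter SLC1A2 15.0% and 6.38% with 2.72% shared. Of 34 cell cycle genes, 5 were control only, none sh4 only and 1 both. E2F2, an activator of S-phase genes, had 33.0% and 0%, and CDK6 7.60% and 13.2% with 3.37% shared. Among 28 genes of blood, liver and muscle none was control only and 2 were sh4 only, and IKZF1 had 18.7% and 3.15%, the B-cell gene MS4A1 0% and 27.9%, and NEB 6.74% and 12.4%.

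KDM2A itself had been mapped in the control cells, which allowed its peaks to be counted in each kind of H3K36me2 sequence. Peak midpoints numbered 204.4 per Mb in control-only sequence (201.4 to 207.5) and 198.4 in sequence called in both (188.7 to 208.5), against 166.5 in sh4-only sequence (163.8 to 169.3) and 165.2 over the whole span. Both the KDM2A and the control H3K36me2 IP were made from control cells. The deposited KDM2A list is broad, with 456775 peaks on the analysed sequence, of which 14084 (3.08%) had an FDR under 0.05. The densities above therefore rest mostly on peaks that do not pass that limit. Among peaks with an FDR under 0.05 the order was not the same, with 4.64 per Mb in control-only (4.19 to 5.11), 3.88 in sh4-only (3.47 to 4.32), 5.16 in uncalled sequence and, lowest, 3.05 in sequence called in both (1.95 to 4.54, 24 peaks).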

How the data were processed

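H3K36me2 was immunoprecipitated from control and sh4 cells, 1 library each, and KDM2A from control cells. The submitters' processing notes name the tools SICER, MACS2 and Bowtie 1.1.2 and the builds GRCh38 and hg38, without saying what each was used for. The fold enrichment deposited by the authors is the ratio of IP to background per region or peak. The deposited p-value and FDR come from the authors' caller, and every H3K36me2 FDR lay under 1e-05. The deposited score was tested to be 100 times the log2 fold, capped at 1000, and was not used. The KDM2A pileup is a deposited signal and was not used.

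Lists were intersected on the 200 bp grid with Python 3.11.15, numpy 2.4.6, pandas 2.3.3 and scipy 1.17.1, on 2765 Mb. IP and input reads were recovered from fold and p-value under a Poisson model, 100% within 0.001 (IP) and 0.01 (input) of whole numbers. The overlap code was tested on simulated data. Genes and promoters are from RefSeq GRCh38.p14, and 676 genes of alternate sequences were left out. Intervals are 95% exact binomial for shares and counts and exact Poisson for densities, and cover counting error only, treating regions as independent. Named among genes of at least 5 kb were the 8 most covered in the control at 0% in sh4, the 8 in sh4 at 0% in the control and the 8 at the same sequence in both, the 4 with most sequence in each class, up to 3 per list from 16 lists, and KDM2A and KDM2B. A few genes that this rule selects are not reported here. Other named genes were chosen after their values were seen. Named regions are from the 4 widest and the 4 of highest fold per class. The members and lists were chosen with earlier results of these data known. Alternatives were limits on fold and FDR, equal numbers of regions, the whole of chromosome 1, other overlap and gene rules, and, chosen after seeing the data, gene-poor windows, divisions by chromosome and the limit on 10 Mb windows.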

Additional observations from a re-analysis of the deposited data

How the results depend on the processing

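No paired analysis was possible because each group holds 1 library. Of 42 alternative values, 11 moved little, 28 moved and 3 turned in direction. A turn was scored only for ratios whose reported interval excluded 1. Covered length and gene counts could therefore not be scored as turned. The change from more control-only to more sh4-only genes at the FDR limit is not among the 3. Ratios and shares moved little if they stayed in the reported interval, and gene counts if they stayed within a set factor. The sh4 to control region ratio (1.04) was 1.30 with folds at or above the control median, 2.01 at an FDR of at most 1e-10, 1 with equal numbers of regions by p-value, 1.099 with the whole of chromosome 1 and 1.23 in windows with fewer than 5 genes, a setting chosen after seeing the data. In the first 4 of these settings, in that order, the ratio of covered length (0.991) was 1.47, 1.88, 0.953 and 1.11, and that of gene body length (0.867) was 1.39, 1.75, 0.834 and 0.990. Gene body length gave 0.921 with all annotated genes and 1.04 in the gene-poor windows. The share of control length called in sh4 (8.32%) was 4.51% under the fold limit, 3.03% under the FDR limit, 8.77% with the whole of chromosome 1 and 18.9% with sh4 regions widened by 5 kb. Divided by the sh4 coverage of the span, this share was 2.46 as deposited, 2.62 under the fold limit and 3.23 under the FDR limit. The share of control regions overlapped (13.6%) was 6.88% and 4.96% under those limits, 13.1% with equal numbers, 8.26% when 50% of the region had to be shared, 23.3% after widening and 15.98% in gene-poor windows. Of the widest control regions 5.13% shared 50% of their width. Control-only genes (1849) numbered 1195 and 475 under the limits. With at least 10% of the body called there were 1032 control-only, 571 sh4-only and 178 shared genes. The limits leave fewer regions, and more of them in sh4, where the median fold was higher. The cause of these changes was not tested for any setting. The recovered reads of a median region set the precision of its fold, and depth per library is unknown.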
